A study of Danio rerio with 12 samples.

Results

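The whole eye of the 3-month-old wild-type zebrafish is described here from 6 of the 12 samples in a study of lrpap1, a gene for a chaperone of lipoprotein receptors whose loss is studied there in relation to myopia. Each of the 6 samples held the paired eyeballs of a single fish, so the 6 samples are 6 animals, called fish 1 to fish 6 after the replicate numbers in their labels. All 6 carry the wild-type genotype, no treatment is named, and strain, sex and hour of collection are not given in the sources used here. Messenger RNA was enriched by its poly(A) tail and sequenced, and the deposited table lists read counts and TPM (a level per unit of gene length, scaled to the same total in every sample) for 37055 genes. The other 6 samples are lrpap1 mutants and are not used. Total counts lay between 7988538 (fish 1) and 9829112 (fish 6), and 23147 to 23751 genes had at least 1 count in a fish. The transcript of lrpap1 itself, named after its values were seen, was even across the 6 fish, with 237, 242, 267, 273, 214 and 222 counts in fish 1 to 6.

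A teleost eye is built from tissues with very different RNA. The lens is a mass of fibre cells filled with crystallins, the transparent proteins that give it its refractive power, and it sits in front of a retina in which rods and cones catch light, bipolar, horizontal and amacrine cells process the signal, ganglion cells send it to the brain and Müller glia span the layers. Behind the retina lie the pigment epithelium, which regenerates the visual chromophore, and a vascular choroid with melanin cells and silvery iridophores. The whole is enclosed by the epithelium and collagenous stroma of the cornea and by a sclera that in fish contains cartilage and may contain bone, with the eye muscles attached outside.

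Fish 3 stood apart from the others before any gene group is considered. Across the 17006 genes with a mean of at least 20 counts, Pearson's r of log2(CPM + 1) lay between 0.956 and 0.973 for pairs of the other 5 fish and between 0.898 and 0.922 for the pairs that include fish 3. This correlation is taken across genes of the same table and serves as a description only. Leaving the crystallins out brought the pairs with fish 3 to 0.911 to 0.934, still below every other pair. Leaving out all 273 genes that were at least 4-fold lower in fish 3 than in the lowest other fish brought them to 0.931 to 0.955. These genes were chosen by the values of fish 3, so a rise was fixed in advance. Because fish 3 stood apart, counts of variable genes are given with and without it below. Counts of all pairs of libraries differed by far more than sampling noise, the lowest chi-square per degree of freedom being 10.6, so no libraries were merged. This says only that they differ by more than counting error.

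Variation between fish was expressed as the biological CV, the standard deviation between fish left after the counting error is taken away, divided by the mean of the scaled counts. A gene was called variable above a biological CV of 0.5. This call can miss a gene that is low in a single fish and even in the others. The lens gene gja8b, with 1 count in fish 3 and 258 to 312 counts elsewhere, had a CV of 0.495. The cytoskeletal gene vim, also low in fish 3 alone, had a CV of 0.483. Neither was called, so a gene not called variable may still be low in 1 fish. Of the 17006 tested genes 996 were variable over the 6 fish, or 5.86%, and 696 of 17085 without fish 3, or 4.07%. The median gene had a biological CV of 0.164, or 0.147 without fish 3. No test between groups is made and no p-value is given, since the 6 fish form a single group. Counts of variable genes in the lists of marker genes below are read against these 2 percentages.

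A median of at least 1 TPM was reached by 18557 genes, of which 17926 are protein coding and 486 are long non-coding RNAs. Without fish 3 the number was 18588, and 18396 genes were in both sets. A median of at least 10 TPM was reached by 9322 genes, 100 TPM by 1198 and 1000 TPM by 136, of which 26 are crystallins. At the other end 10474 genes had no count in any of the 6 fish. The RNA pool was concentrated, since the 25 most abundant genes of each fish took 23.0% to 27.8% of its TPM and 172 to 274 genes made up its upper 50%. Fish 1 and fish 2 had the most concentrated pools, with 172 and 176 genes.

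Lens and photoreceptors filled the top of the ranking by median TPM. After the mitochondrial transfer RNA trnS1, which ranked first, came rhodopsin (rho, the visual pigment of rods, chromosome 8, 54076192 to 54077740) with 16380, 21921, 28664, 26454, 22897 and 21552 TPM in fish 1 to 6. Its values spread less than 2-fold, fish 1 being lowest and fish 3 highest. The crystallin crygs1 (chromosome 22, 11710514 to 11714123) followed with 29368, 28105, 195, 20122, 19857 and 22414 TPM. Here fish 3 alone was low and the other 5 fish lay together, with fish 1 and fish 2 above the rest. Of the first 25 genes 11 are crystallins, and 24 of the 25 were kept when the ranking was made without fish 3. The ranking of fish 3 by itself shared 14 of the 25, and none of its own top 25 genes was a crystallin.

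Other high genes belong to photoreceptors, to metabolism and to the ocular surface. The cone genes arr3a (cone arrestin, which quenches the activated pigment) and gnat2 (cone transducin, the G protein of phototransduction) had medians of 4821 and 3819 TPM. LOC110437775, annotated as a gamma-like subunit of the rod phosphodiesterase that the light signal activates, had a median of 4629 TPM. The creatine kinase gene ckbb, which buffers ATP, was at 9732 TPM and the mitochondrial ADP/ATP carrier slc25a5 at 4125 TPM. The keratins krt91 and krt5, structural proteins of epithelial cells, ranked 16 and 19 with 5792 and 4902 TPM. A retinol-binding protein gene, rbp4l, had 10002 to 18074 TPM and a median of 12349 TPM, and a long non-coding RNA gene whose position overlaps it, LOC101886495, had a median of 9573 TPM. Whether reads were assigned by strand is not given in the sources used here, so the 2 genes (chromosome 21, 20339689 to 20342022 and 20322908 to 20340220) may share reads.

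**Figure D1:**
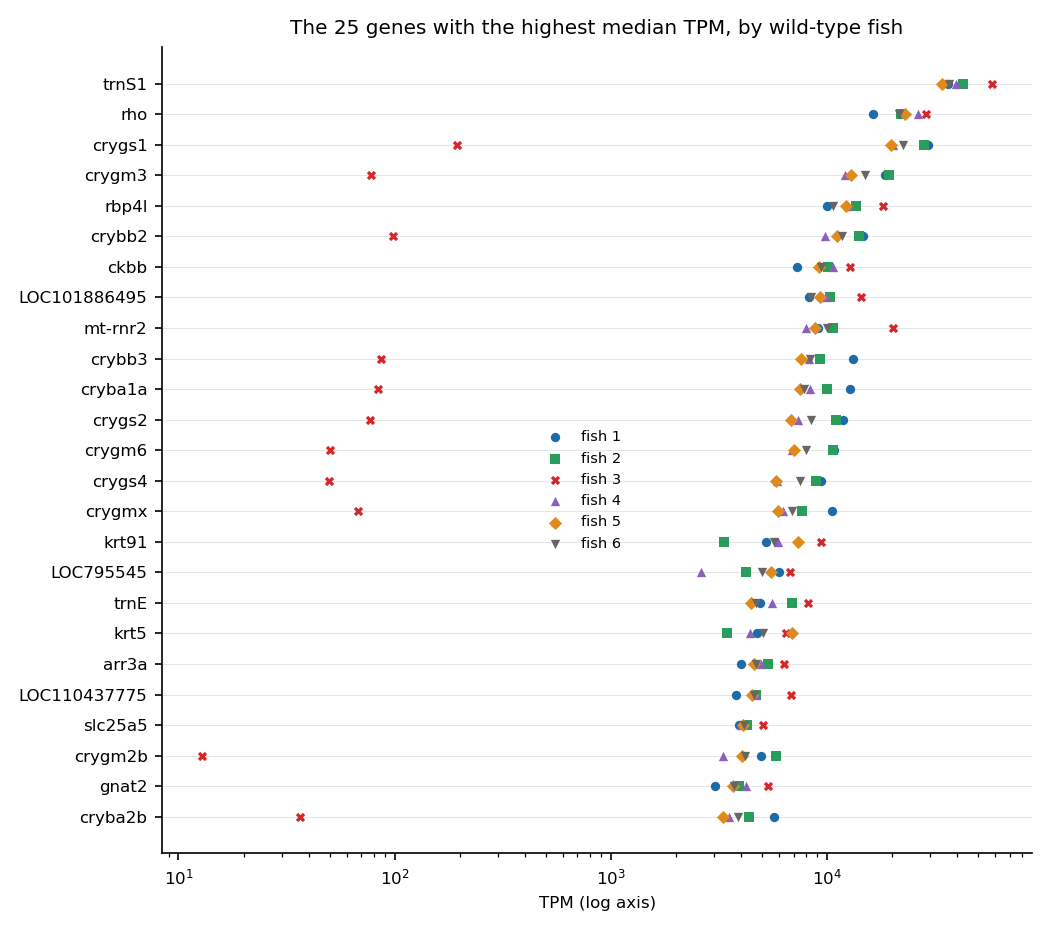
TPM on a log axis of the 25 genes with the highest median over the 6 wild-type fish, 1 point per fish, ordered by that median from the top. The 11 crystallin genes have fish 3 far to the left (195 TPM for crygs1), while in the other 14 genes the 6 fish lie close together.

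Mitochondrial RNA took 5.67% to 9.75% of TPM but 0.952% to 2.12% of counts. Very short features rank high on the per-length scale. The transfer RNA trnS1, 71 bases long, had 33956 to 58229 TPM, and trnE, 69 bases long, ranked 18. Mitochondrial large ribosomal RNA (mt-rnr2) was at 9048, 10691, 20276, 7978, 8826 and 9995 TPM, fish 3 being well above the others. Cytosolic ribosomal protein genes together took 6.26% (fish 4) to 9.36% (fish 3) of TPM. This total includes crystallins, which took 20.4% of TPM in fish 1 and 0.116% in fish 3. The order of fish may therefore differ without them.

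Crystallins were the largest group of named genes in 5 fish and nearly missing in the remaining one. The 59 crystallin genes held 20.4%, 18.2%, 0.116%, 13.3%, 12.8% and 14.9% of TPM in fish 1 to 6, or 9.75%, 8.52%, 0.0528%, 5.61%, 5.45% and 6.53% of counts. On either scale fish 3 was more than 100 times below every other fish, and fish 1 and fish 2 were above fish 4 to 6. In such bulk samples fewer cells of a type and less RNA per cell cannot be told apart. Gamma crystallins, the proteins of the dense lens core, made up 63.3% of the crystallin TPM of the 5 other fish, beta crystallins 32.0% and alpha crystallins, which are small heat shock proteins and act as chaperones, 3.89%. In the little crystallin RNA left in fish 3 the order was the same, with 54.8%, 37.8% and 6.15%.

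Nearly the whole family was low in fish 3. Of the 38 crystallin genes with enough counts, 37 were at least 4-fold lower in fish 3 than in the lowest other fish. The median of the other 5 fish was 72.5 to 109 times the value of fish 3 for the 3 alpha genes, 66.0 to 181 times for the 13 beta genes and 53.7 to 384 times for the 20 gamma genes tested. By this measure the widest gap was in crygm2a, with 384 times, and the narrowest measured gap among the 37 low genes was in crybb1l3, with 66.0 times. In crygm2e fish 3 had no count and was set to the floor of 3 counts, so that its ratio of 53.7 is a lower bound. The exception was crybg3, a widely expressed relative with a beta-gamma crystallin fold, whose biological CV was 0.114. The other 21 crystallin genes all belong to the crygm2d cluster, had too few counts to be tested, and 3 of them (crygm2d5, crygm2d9 and crygm2d18) had no count in any fish. These cluster genes are near-identical copies whose reads the counting may have split or dropped, so their low values are uncertain.

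Other lens genes moved with the crystallins. The 19 listed lens fibre and lens epithelium genes held 0.692%, 0.582%, 0.00436%, 0.466%, 0.431% and 0.498% of TPM, the same order of fish as for crystallins. The water channel gene mipa of fibre cells had 11458, 12749, 61, 9243, 8588 and 11290 counts. The beaded filament gene bfsp2, part of the fibre cytoskeleton, had 8516, 8822, 27, 6076, 5034 and 6922 counts. For both genes fish 3 lay more than 100 times below the lowest other fish, with ratios of 131 and 174. The gap junction gene gja8b, which couples fibre cells, had 265, 278, 1, 258, 280 and 312 counts. The lens epithelium factor foxe3 was less far apart, with 0.887 TPM in fish 3 and 4.12 to 5.62 TPM elsewhere, and caprin2 was not apart at all (0.922 TPM in fish 3 and 0.495 to 1.80 TPM elsewhere). In all 18 of the 19 genes were at least 4-fold lower in fish 3.

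Most lens genes were called variable only when fish 3 was included. Of the 38 tested crystallins 37 were variable over 6 fish and 2, crygm5 and crygmxl1, over the 5 without fish 3, whose background was 4.07%. Of the 19 other lens genes 16 were variable with fish 3 and 1, bfsp1, without it. Among the 5 fish the crystallin share still ranged 1.59-fold and that of the other lens genes 1.60-fold.

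Photoreceptor RNA was far more even. The 12 rod genes held 2.39%, 2.97%, 4.17%, 3.65%, 3.05% and 3.01% of TPM and the 20 cone genes 1.99%, 2.48%, 3.31%, 2.59%, 2.35% and 2.31%. In both lists fish 1 was lowest and fish 3 highest. These are shares of a total to which crystallins contribute, and fish 1 had the most and fish 3 the least of them. With crystallins taken out of the total the highest fish was 1.40 times the lowest for rods (1.74 times before) and 1.32 times for cones (1.66 times before). None of the 12 rod genes was variable, and their median biological CV was 0.181, or 0.134 without fish 3. Rod transducin (gnat1) had 2198 to 4202 TPM, the rod arrestins saga and sagb 603 to 1206 and 715 to 1427 TPM, and the rod transcription factor gene nrl 34.2 to 45.6 TPM. The 12 genes used by rods and cones together, among them crx, which directs photoreceptor differentiation (217 to 440 TPM), and the disc rim genes prph2a and prph2b, had no variable member.

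In the retinal lists only 2 green cone opsins were variable. Zebrafish cones carry an ultraviolet opsin (opn1sw1), a blue opsin (opn1sw2), 4 green opsins in a tandem array (opn1mw1 to opn1mw4) and 2 red opsins in another (opn1lw1 and opn1lw2). The ultraviolet opsin was the highest of them in every fish, with 1226 to 2184 TPM, followed by the blue opsin with 866 to 1680 TPM. Both varied little, with biological CVs of 0.193 and 0.249. The green opsin opn1mw1 had 82.7, 10.1, 86.0, 39.7, 21.9 and 22.8 TPM, high in fish 1 and fish 3 and lowest in fish 2. Its neighbour opn1mw3 had 79.5, 281, 176, 104, 132 and 181 TPM, lowest in fish 1 and highest in fish 2. These 2 were the only variable genes of the 20 in the cone list, with biological CVs of 0.767 and 0.539, and both were also called without fish 3. They make up 10% of the list, against 5.86% of all tested genes, or 4.07% without fish 3. A list of this size holds few variable genes in any case. The main green opsin opn1mw2 had 329 to 658 TPM and a CV of 0.252, and the main red opsin opn1lw2 had 174, 475, 289, 351, 433 and 194 TPM, with fish 1 and fish 6 below the rest. The tandem copies are similar in sequence, and how multiply matching reads were counted is not given in the sources used here.

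The inner retina had no variable gene. None of the tested genes of bipolar cells (12), horizontal cells (7), amacrine cells (10), ganglion cells (14) or Müller glia (7) was variable, with or without fish 3. At a background of 5.86%, lists of this size hold few variable genes in any case. The median biological CVs of horizontal and ganglion cell genes, 0.209 and 0.207, lay above the 0.181 of rods and the 0.164 of all tested genes. Those of bipolar cells and Müller glia, 0.157 and 0.153, lay below both. Without fish 3 the medians in the same order of lists were 0.142, 0.146, 0.138 and 0.122. Each lay below the 0.147 of all tested genes, and that of rods was 0.134. Bipolar genes were led by the calcium sensor gene cabp5a (1010 to 1864 TPM) and held 0.134% to 0.243% of TPM. Among amacrine genes gad1b, which makes the inhibitory transmitter GABA, led with 430 to 664 TPM. Ganglion cells were led by sncgb, a synuclein gene, with 651 to 908 TPM, and held 0.111% to 0.135% of TPM. In Müller glia glula, which recycles glutamate as glutamine synthetase, had 900 to 1102 TPM. The glial filament gene gfap was the 1 Müller gene with a low fish, 23.2 TPM in fish 3 against 44.8 to 55.0 TPM in the others, and the ganglion cell factors pou4f2 and pou4f3 were lowest in fish 3 too (5.03 and 9.01 TPM, others from 11.9 and 16.7 TPM). Horizontal cells were led by ompa (156 to 260 TPM), while its paralogue ompb had a count in fish 3 alone. Retinal markers were thus present in all 6 libraries, as the label eyeball says.

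Pigmented tissues varied a little more. The pigment epithelium gene rpe65a, whose enzyme regenerates the chromophore, had 719, 1246, 1373, 1487, 1270 and 926 TPM, lowest in fish 1 and highest in fish 4. None of the 7 tested pigment epithelium genes was variable, although the list share ranged 2.08-fold, from 0.133% in fish 1 to 0.276% in fish 4. Of 10 tested genes of melanin cells only tyr, the gene of tyrosinase, was variable, with 4.04, 5.14, 2.05, 10.5, 17.7 and 10.2 TPM and a CV of 0.617, or 0.477 without fish 3. Premelanosome genes tyrp1b and pmela had 237 to 457 and 119 to 237 TPM. Iridophores, which reflect light from guanine crystals, were represented by pnp4a with 20.4 to 60.2 TPM, fish 1 being lowest and fish 4 highest. Their patterning genes alx4a and alx4b were variable (CVs of 0.601 and 0.738), highest in fish 5 and lowest in fish 3, and without fish 3 only alx4b was (CVs of 0.426 and 0.584).

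Genes of the outer coat of the eye were often variable. Stromal genes of cornea and sclera held 0.164%, 0.110%, 0.0543%, 0.200%, 0.344% and 0.229% of TPM, a 6.33-fold range that shrank to 3.13-fold without fish 3. Of 13 genes 8 were variable over 6 fish and 2 over 5 fish. The type I collagen genes col1a1a, col1a1b and col1a2, which build the main fibre of the sclera, went together. Type I collagen col1a1a stood at 448, 254, 67.5, 561, 989 and 624 TPM, lowest in fish 3 and highest in fish 5. The corneal proteoglycan gene kera departed from this order, with 129 to 239 TPM and its highest value in fish 3. Collagen genes as a family were often variable, 20 of 50 tested with fish 3 and 9 without it, a count made after the values were seen.

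Bone and cartilage genes followed the same fish. Whole eyes were sequenced, so the place of this RNA within the sample is not known. The 9 bone genes held 0.0432%, 0.0170%, 0.00400%, 0.0835%, 0.0956% and 0.0954% of TPM, so fish 4 to 6 lay above fish 1, fish 1 above fish 2 and fish 2 above fish 3. The type X collagen col10a1b, a gene of calcifying matrix, had 105, 43.7, 1.77, 290, 366 and 399 TPM, and the osteopontin gene spp1 16.1, 13.4, 1.41, 69.9, 96.4 and 127 TPM. Of 7 tested bone genes 5 were variable over 6 fish and 3 (col10a1a, col10a1b and spp1) over 5 fish. Osteocalcin (bglap) was variable with fish 3 only, with 21.9 TPM there and 82.9 to 274 TPM elsewhere. Of 16 tested cartilage genes 5 were variable, and 3 without fish 3. The main cartilage collagens col2a1a and col2a1b were not, at 19.1 to 59.3 and 28.0 to 61.0 TPM.

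The ocular surface epithelium was abundant, with 0.960% to 2.03% of TPM, lowest in fish 2 and highest in fish 3. With crystallins taken out of the total, fish 5 was highest at 2.13%, ahead of fish 3 at 2.03%. Fish 2 was still lowest at 1.17%. Of its 18 tested genes 4 were variable with and without fish 3, though the 4 genes were not identical. Krt93 and krt96 had the largest variation. Krt93 had 0, 10, 942, 3, 31 and 97 counts, and krt96 8, 9, 491, 11, 17 and 310 counts, high in fish 3 and fish 6 and low elsewhere. The abundant keratins krt91, krt5 and krt4 were not variable, with biological CVs of 0.272, 0.188 and 0.366.

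Muscle, blood and vessels were present in every fish. Skeletal muscle genes took 0.172% (fish 3) to 0.445% (fish 1) of TPM, led by the fast myosin light chain gene mylpfa with 291 to 696 TPM. Of 28 tested muscle genes 3 were variable (2 without fish 3), and pvalb2, a parvalbumin that buffers calcium, was the farthest out, with 34.5 TPM in fish 4 and 0.260 to 6.53 TPM in the others. Haemoglobin and other red cell genes took 0.270% to 0.762% of TPM. The alpha globin hbaa1 had 1225, 4237, 1410, 1035, 3647 and 2449 TPM, high in fish 2, 5 and 6, and 4 of 8 red cell genes were variable (3 without fish 3). The globin genes are close copies of each other and may share reads. Endothelial genes were lowest in fish 3 and fish 1 and highest in fish 5, with 0.00749%, 0.0101% and 0.0323% of TPM, and 5 of 13 were variable (3 without fish 3), among them the tight junction gene cldn5b (6.72 to 58.5 TPM).

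Macrophage and microglia genes took 0.0683% to 0.167% of TPM, most of it on the antigen presentation genes cd74a and cd74b. Fish 5 was highest and fish 2 lowest, and 1 of the 16 tested genes, csf1ra, was variable with fish 3 (CV of 0.515) and not without it (0.432). The T and B lymphocyte list was near its floor (0.000267% to 0.00101%), and none of its genes had enough counts. Fish 5 had the highest values of lck, zap70 and cd4-1, signalling genes and a coreceptor of T cells, at 3.51, 2.47 and 2.13 TPM against at most 1.21, 1.17 and 0.879 TPM in the others. Dividing cells were represented by pcna, a replication factor gene, at 50.4 to 67.7 TPM, with none of 9 tested genes variable.

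The 4 lists of tissue from outside the eye (pituitary, liver, pancreas and oocyte) held little RNA. Genes known from the pineal organ are not among these lists and are described for fish 4 below. Pituitary hormone genes had at most 0.633 TPM in any fish. Pancreatic protease genes were led by ela2l with 2.52 to 16.6 TPM, the 1 tested gene of that list, which was variable with and without fish 3 (CVs of 0.529 and 0.542). The highest gene of the oocyte list was zar1 with 1.08 to 3.32 TPM. No count was seen in any of the 6 fish for serpina1 and vtg5 of the liver list, for zp2.1 and zp2.5 of the oocyte list or for the interferon-induced genes ifit10 and ifit15. Liver genes reached 0.0346% to 0.0506% of TPM almost entirely through rbp4 (207 to 388 TPM), a retinol carrier, and ambp (81.5 to 148 TPM), while the liver-defining gene fabp10a had at most 2.37 TPM and the fibrinogen genes at most 0.367 TPM.

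Genes that follow the time of day were even. None of 29 clock and clock-controlled genes was variable, with or without fish 3. At a background of 5.86% a list of this size holds few variable genes in any case. Their median biological CV was 0.121, below that of all tested genes (0.164). Without fish 3 it was 0.120 against 0.147, a smaller gap. The repressor genes bhlhe40, nr1d1 and bhlhe41 were highest, with medians of 855, 446 and 394 TPM. The light-responsive cryptochrome cry1ab varied most, with 604, 1009, 704, 568, 963 and 302 counts and a CV of 0.393. Of 17 immediate early genes only fosl1a was variable (30, 52, 104, 165, 32 and 65 counts), a share close to the background of 5.86%, and none of 15 heat shock genes was. The median biological CVs of these lists, 0.251 and 0.216, were above the 0.164 of all tested genes. Without fish 3 they were 0.207 and 0.114 against 0.147 for all tested genes, so the heat shock list then lay below. Of 9 interferon-induced genes 3 were variable, mxa, mxc and stat1b, all with at most 84 counts in a fish, and mxc was not called without fish 3 (CV of 0.412). The 11 reference genes commonly used to normalize expression had no variable member, but gapdh, at 201 TPM in fish 3 and 360 to 680 TPM elsewhere, had a CV of 0.423.

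**Figure D2:**
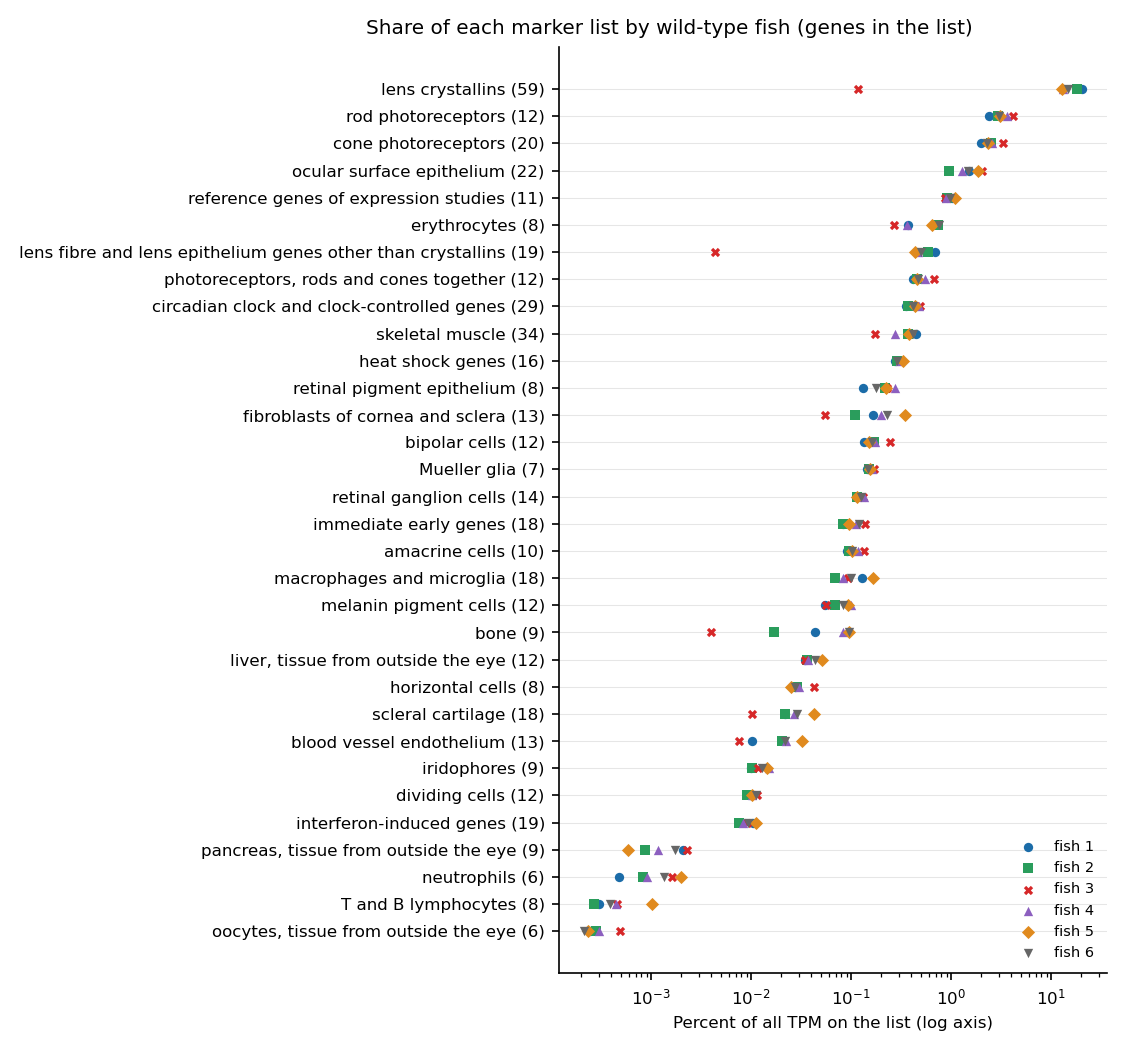
Percent of all TPM on each marker list but the pituitary one, which is at 0 in fish 6, on a log axis, with 1 point per wild-type fish and the number of genes found in brackets. The 2 lens lists have fish 3 far to the left of the other 5 fish, the retinal lists have their 6 points close together, and bone, stroma, cartilage and endothelium are spread with fish 3 lowest.

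Over all genes, the variable set depended on fish 3 in part. Of the 996 variable genes 577 were also called without fish 3 and 419 were called only with it, of which 23 had too few counts in the other 5 fish to be tested. A further 119 genes were called only without fish 3. When each variable gene was assigned to the fish farthest from the median, fish 3 as the lowest fish accounted for 444 genes (44.6%), and fish 5 as the highest fish came next with 123 genes. A biological CV over 1 was reached by 96 genes with fish 3 and by 93 without it. Long non-coding RNA genes were called more often than protein-coding genes, 14.8% of 237 against 5.73% of 16699, and 27 of 239 against 662 of 16775 without fish 3.

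**Figure D3:**
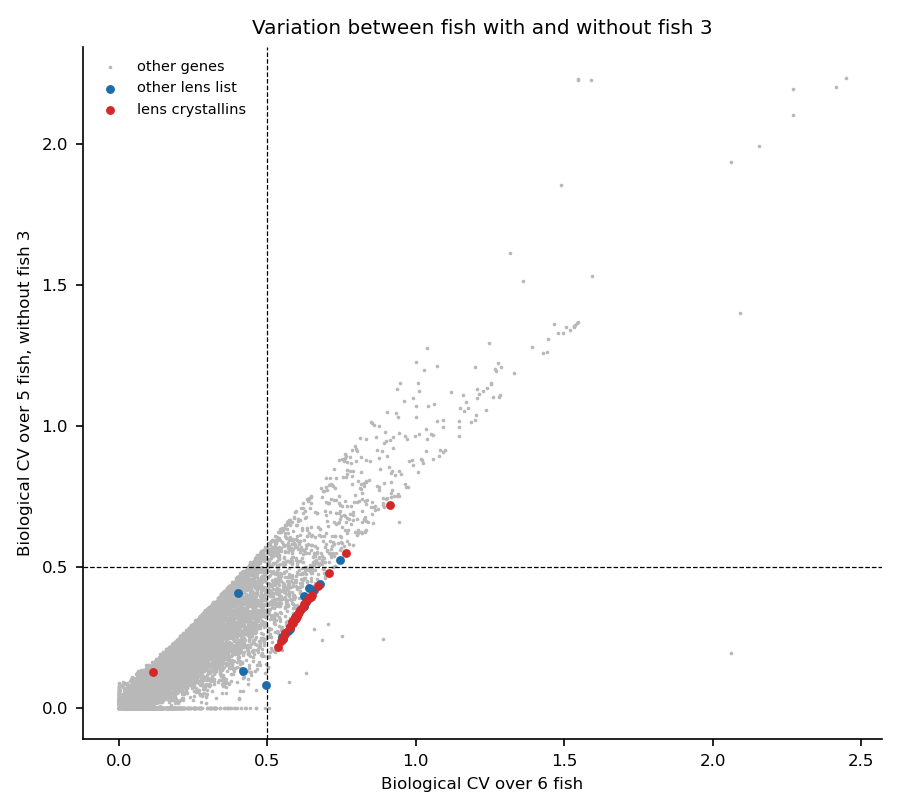
Biological CV over 6 fish (horizontal) and over 5 fish without fish 3 (vertical) of each gene tested in both, with dashed lines at 0.5. The 23 variable genes with too few counts without fish 3, prss60.1 among them, are not drawn. Most crystallins and other lens genes form a narrow streak to the right of the vertical line and below the horizontal one. The drawn genes with a CV over 1 stay high on both axes apart from tgm1l3 (2.06 and 0.193).

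Fish 3 was at least 4-fold below all others in 273 genes and above all others in 5. No other fish had more than 18 genes on the low side, the number in fish 2, or more than 5 on the high side. Of the 273 low genes, out of 17006 tested, 37 are crystallins, 18 are in the other lens list and 12 are in another marker list. These 12 are 4 of 7 tested bone genes, 3 of 13 stroma, 3 of 16 cartilage, 1 of 13 endothelial and 1 of 16 macrophage genes. The remaining 206 genes are in no list. No gene of the rod, cone, bipolar, amacrine, ganglion cell, Müller glia, pigment epithelium or surface epithelium lists was among the 273. With 273 low genes among 17006 tested, lists of 7 to 20 tested genes hold few low genes in any case.

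Most of the unlisted genes were less far apart than the crystallins. The median of the other 5 fish was 10.5 times the value of fish 3 for the median of the 236 genes that are not crystallins. Among the 206 unlisted genes the quartiles were 7.02 and 19.7 times, and 23 were over 50 times. By the ratio of the lowest other fish to fish 3, the gene farthest apart outside the crystallins was zgc:153846 (chromosome 9, 22017380 to 22018304), with 5113, 5415, 14, 4162, 3185 and 5178 counts. By the same measure si:dkeyp-1h4.8 came next, with 1966, 563, 3, 897, 894 and 970 counts. Crystallins were told by gene name, and zgc:153846 lies between the gamma crystallin genes crygm1 and crygm2c. The low genes si:dkey-57a22.14 and si:dkey-57a22.15 lie among the gamma crystallin genes of chromosome 9 too. The jacalin-like lectin genes jac6, jac8 and jac9 on chromosome 7 stood at 5, 18 and 7 counts in fish 3 and at 937 to 3038, 3151 to 7489 and 1334 to 3876 counts elsewhere. Lenep, a lens epithelial protein gene, had 9 counts in fish 3 and 1262 to 3300 counts elsewhere. From the other lens list, lengsin (lgsn), a lens protein related to glutamine synthetase, had 18 against 2467 to 4999 counts. Among the remaining low genes, chosen after their values were seen, were the network collagens of basement membranes col4a3, col4a5 and col4a6, whose median in the other fish was 24.0, 9.38 and 8.28 times that of fish 3, and the cytoskeletal gene vim with 10.6 times. The myelin gene mbpa, named for the same reason, was lower in fish 3 by a smaller factor, with 3956 counts against 7785 to 9609.

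On the high side fish 3 was at least 4-fold above all others in prss60.1, si:dkey-238d18.3, tgm1l3, krt93 and LOC108179116. The serine protease gene prss60.1 (chromosome 6) had 1, 0, 339, 1, 0 and 0 counts. The transglutaminase gene tgm1l3, whose family cross-links the cell envelope of epithelia, had 71, 64, 3117, 107, 98 and 132 counts, and without fish 3 its biological CV went from 2.06 to 0.193. Krt93, given above, was 10.3 times higher than in the next fish. The gene si:dkey-238d18.3 had 3, 0, 165, 0, 0 and 5 counts, and LOC108179116, annotated as stabilin-2-like, had 8, 18, 92, 4, 10 and 12 counts. Differences of less than 4-fold in the same direction were seen in elf3, a transcription factor gene of epithelia (112 counts against 19 to 32), and in LOC101885779, annotated as mucin-5AC-like (123 counts against 1 to 49). The total count of fish 3 was within the range of the other fish and its mitochondrial RNA the highest, and the part of either in its profile was not tested.

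**Figure D4:**
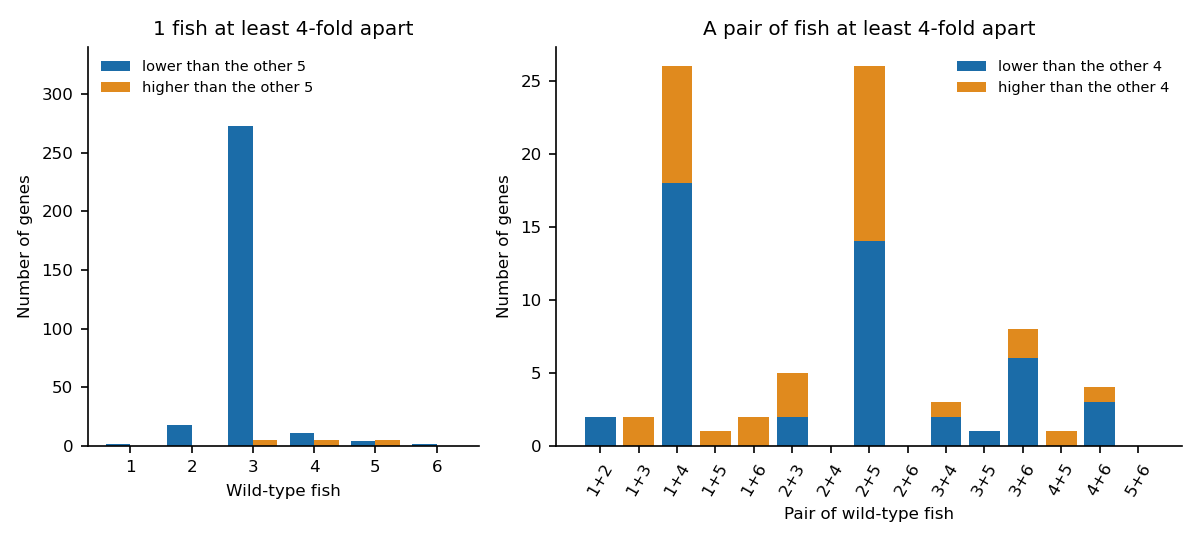
Left, number of genes in which a single wild-type fish was at least 4-fold below (blue) or above (orange) all 5 others, with fish 3 at 273 low genes. Right, number of genes in which a pair of fish was at least 4-fold apart from the other 4, with the pairs 1 and 4 and 2 and 5 at 26 genes each and no other pair above 8.

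Fish 4 carried a set of genes that the other eyes nearly lacked. The gene exorh (extra-ocular rhodopsin, an opsin known from the zebrafish pineal organ, chromosome 8) had 19, 6, 16, 1102, 10 and 14 counts. Recoverin b (rcvrnb), a calcium sensor gene of photoreceptor-type cells, had 7, 11, 11, 353, 9 and 12 counts. Other genes known from the pineal or the brain were looked at after these values were seen. The homeobox gene bsx had 13 counts in fish 4 and 0 in all others, parapinopsinb, a gene of a pineal opsin, had 6 counts in fish 4 and at most 1 elsewhere, and tph2, an enzyme of serotonin synthesis, had 106 counts against 19 to 41. The melatonin enzyme genes asmt and aanat2, which the retina or pineal uses at night, were less distinct, asmt with 742 counts in fish 4 against 330 to 478, and aanat2 with 379 in fish 4 and 382 in fish 6. Fish 4 also had 667 counts of LOC402866, annotated as trichohyalin, against 0 to 33, and 127 counts of ggact.3 against at most 1.

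Fish 5 had single genes of the same kind, while the 18 genes at least 4-fold apart in fish 2 were all low. The long non-coding RNA gene LOC110438647 (chromosome 5) had 586 counts in fish 5 and 0 in the other 5 fish, the largest biological CV of all tested genes, 2.45. Fish 5 was also highest in si:ch211-244a23.1, with 198 counts against 0 to 8, and in pkhd1l1, with 160 counts against 3 to 37. In fish 2 the transglutaminase gene tgm1l2 had 2 counts, while fish 1 had 159 and the other 4 had 820 to 3259. The gene wu:fk65c09 had 358, 2, 2172, 1512, 1069 and 359 counts, again nearly missing in fish 2. Genes with at most 3 counts in a fish and at least 100 in another numbered 78, of which 31 were off in fish 3 alone, 3 of these being crystallins, and 40 such genes were found among the 5 other fish.

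Histocompatibility genes present peptides to T cells and are known to differ in gene content between zebrafish haplotypes. On and off patterns were seen in some genes on chromosome 8, which are named here for these patterns. The family as a whole was not counted, and any part of haplotype was not tested. On chromosome 8, 3 genes with the same pattern lie between 36283684 and 36327383, among them si:busm1-48c11.3 and LOC103911540, which is annotated as a class II antigen. LOC103911540 had 0, 227, 229, 0, 0 and 0 counts, and si:busm1-48c11.3 had 0, 139, 163, 0, 0 and 0. The remaining gene had 157 and 254 counts in fish 2 and fish 3 and 0 elsewhere. All 3 were thus seen in fish 2 and fish 3 alone. A count of 0 allows up to 3 counts at these depths. The class II gene mhc2dab on the same chromosome had 312, 208, 2, 178, 1259 and 752 counts, the reverse for fish 3 but not for fish 2. Histocompatibility genes belong to families of similar copies, so these counts are uncertain.

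Pairs of fish shared a number of such patterns, counted after the data had been seen. A pair was at least 4-fold above or below the other 4 fish in 81 genes. Fish 1 with fish 4 and fish 2 with fish 5 accounted for 26 genes each, while the other 13 pairs had 0 to 8. At a minimum of 2-fold the contrast was smaller, 56 and 62 genes against up to 51 (fish 2 with fish 3).

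Fish 1 and fish 4 were high together in oxt, the gene of the hormone oxytocin (94, 4, 12, 125, 6 and 7 counts), and in the long non-coding RNA genes LOC110438680 and LOC110439450 (121 and 111 counts, and 105 and 108 counts, at most 3 in any other fish). Cyp19a1b, the brain aromatase that makes oestrogens and is known from radial glia, leaned the same way with 470, 20, 114, 296, 45 and 12 counts and was named after its values were seen. They were low together in zgc:111983, with 167 and 191 counts against 813 to 1097, and in si:ch211-281l24.3, with 34 and 26 counts against 495 to 750. Fish 2 and fish 5 were high together in si:dkey-104n9.1, with 82 counts each and 0 in the other 4. They were low together in zgc:162999 (1 and 0 counts against 101 to 163) and in the chloride channel accessory gene clca1 (0 and 0 against 70 to 115). Neighbouring genes shared these patterns in 3 places. On chromosome 15 the genes LOC794425, LOC100002043 and si:ch1073-340i21.3 (46268808 to 46336387) were low in fish 1 and fish 4. On chromosome 7 the genes LOC100534786, zgc:171695 and LOC100331508 (2954437 to 3080530) were low in fish 2 and fish 5. The chromosome 8 genes of fish 2 and fish 3 are the third place. Other neighbours differed in pattern, namely si:dkey-19a16.7, si:ch211-209l18.4 and si:ch1073-188e1.1 on chromosome 22, and ppp1r27a and zgc:113265 on chromosome 3. Family, batch and strain of the fish are not in the labels, and their part was not tested.

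**Figure D5:**
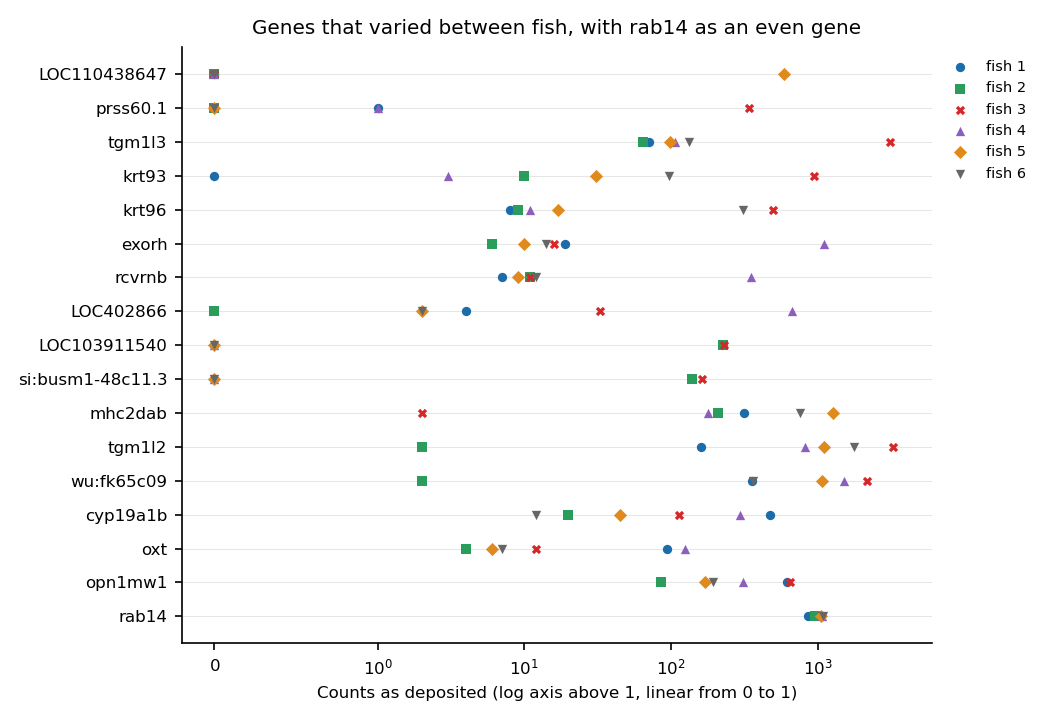
Counts as deposited in each wild-type fish for 17 genes, on an axis that is linear from 0 to 1 and logarithmic above 1. LOC110438647 is seen in fish 5 alone, prss60.1 and tgm1l3 stand out in fish 3, exorh and rcvrnb in fish 4, LOC103911540 is seen in fish 2 and fish 3, and rab14 is even.

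The most even genes gave the lower end of the scale. Among the 1700 genes with a mean of at least 1000 counts, 77 had a biological CV under 0.05 and 74 one over 0.5, the latter dropping to 16 without fish 3. The vesicle transport gene rab14 had 857, 957, 1050, 1063, 1047 and 1086 counts, in step with library size, and its variance did not exceed counting error. The same held for capzb, which caps actin filaments, and for ypel2b and pdcd6ip, and zeb2a, atrx, usp10, map3k5, ywhaba and the clock gene bhlhe41 had CVs of 0.0104 to 0.0197.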

How the data were processed

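Per the file headers and the labels, the deposited table holds read counts and TPM per gene and sample. The submitters' processing notes name HISAT2 2.1.0 and the GRCz11 genome build, and the paper's methods describe oligo(dT) selection. The counting program and its use of strand are not given in the sources used here. The count columns deposited by the authors are whole numbers without normalization, and the deposited TPM columns sum to the same total in each sample. Levels and list shares were taken from TPM. Variation was taken from counts scaled by TMM factors in edgeR 4.0.16 (R 4.3.3). The biological CV was the square root of the variance of the scaled counts less the counting variance, divided by the mean, for genes with a mean of at least 20 scaled counts. The calculation was run on simulated counts with known biological CVs. No gene was set there to be low in a single fish, so that case was not tested. Numerical work used Python 3.11.15, numpy 2.4.6 and pandas 2.3.3.

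In ratios between fish, values under 3 counts per library were set to that floor. The genes named were, by rule, the 25 with the highest median TPM, the leading members of each marker list, the genes with the largest biological CV with and without fish 3, those on in some fish (at least 100 counts) and off in others (at most 3), those farthest apart in fish 3 and the most even with a mean of at least 1000 counts. Other members of a list, and genes in which a pair of fish stood apart, were picked for naming after their values were seen, as was any gene of which the text says so. The members and lists were chosen with earlier results of these data known. Neighbouring genes were those within 200000 bases. Of 436 listed symbols 6 (pde6ga, pde6ha, cnga3b, hemgn, ier2b and hsp70.2) matched no row. In 16 rows a spreadsheet had turned the name into a date, and these were named by NCBI gene number. Genes described as crystallin-like but known as small heat shock proteins, among them hspb1, and the aim1 genes were not counted as crystallins. The mutant columns were not used. Alternatives were other scalings (DESeq2 1.42.0 size factors, upper quartile, library total), filters, thresholds, shares of counts and each fish left out.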

Additional observations from a re-analysis of the deposited data

Results flagged for a closer look

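For 154 groups of 6 values (library measures, list shares and the TPM of named genes not chosen for their spread) the gap of the highest or lowest fish to its nearest neighbour was divided by the range, and 26 exceeded Dixon's 95% critical value for 6 values. For separate groups of normally distributed values chance flags about 1 in 20, or 7.7 of 154. The groups here are not separate, since list shares contain their own listed genes and all TPM of a fish share a total. The 26 flags can therefore not be measured against that number. Fish 3 was the outlying fish in 19, fish 5 in 5 and fish 1 and fish 2 in 1 each.

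Fish 3 was far below the other fish in the crystallin share (ratio 0.626) and in the lens genes crygs1 (0.674), crybb2 (0.666), crygm6 (0.638) and grifin (0.664), a galectin of the lens. It was far above them in the shares of bipolar cells (0.628), horizontal cells (0.678), oocyte genes (0.696) and mitochondrial RNA (0.669). Among single genes it was far above them in trnS1 (0.643), mt-rnr2 (0.779), LOC101886495 (0.657), LOC110437775 (0.693), slc25a5 (0.709), rs1a (0.642), cabp5a (0.635), ompa (0.650), the horizontal cell connexin cx52.6 (0.735) and zar1 (0.663). All of these are TPM, a share of a total to which crystallins contribute little in fish 3. Crystallins were then taken out of the total, an alternative chosen after the data had been seen. Of the 15 fish 3 values that are not crystallins 14 no longer exceeded the critical value, and mt-rnr2 (0.652) still did. Among the 14 were bipolar cells (0.487), horizontal cells (0.498), oocyte genes (0.615) and grifin (0.606). The lower ratio of grifin does not mean that fish 3 came closer to the others. Before the change it had 15.1 TPM of grifin against 1191 to 1785 TPM elsewhere. With the change the share of the other lens list, which holds grifin, went from a 159-fold to a 199-fold range.

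Fish 5 was far above the others in the lymphocyte share (0.744), in lck (0.812), zap70 (0.783) and cd4-1 (0.725), and in the chaperone gene hsp90ab1 (0.656). With crystallins taken out of the total the lymphocyte share (0.775) and the T cell genes still exceeded the critical value, and hsp90ab1 (0.410) and stat1a did not. The T cell genes rest on at most 38 counts in a fish. Fish 2 was the outlying fish in stat1a (0.628), a gene of interferon signalling, and fish 1 had a total count below all others (0.627).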

How the results depend on the processing

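Genes with a median TPM of at least 1 numbered 18378 to 18666 with each fish left out, and 9322 at a minimum of 10 TPM. The median crystallin share was 13.3% to 14.9% with each fish left out and 6.07% of counts. Variable genes numbered 696 to 1204 with each fish left out, 1577 at a mean of at least 10 counts, 321 at 100, 581 with at least 10 counts in every sample and 5770 with no filter, and 3403 and 96 above a biological CV of 0.3 and 1. The lowest of these left-out values came without fish 3. Genes lower in fish 3 numbered 792 at 2-fold and 117 at 10-fold, and genes with a pair apart 315 and 31. Among marker lists 24 of 256 recomputed shares moved by more than the spread between fish, 16 as a share of counts and 8 with crystallins taken out of the total. For 206 named genes 83 of 1853 recomputed biological CVs crossed 0.5, 47 of them without fish 3 and none with DESeq2 size factors. The cause of these shifts was not tested. The pair counts, their folds and the collagen count were chosen after the data had been seen. No paired analysis was possible because only 1 group was described, and no test between groups was made. Low genes are limited by depth, since 0 counts in a library allow up to 3.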
